A study of Mus musculus with 8 samples.

Results

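The mitochondrial ribosomal protein genes are the nuclear genes, named *Mrpl* for the large and *Mrps* for the small subunit, that encode most proteins of the ribosome working inside mitochondria. Their members on the array were the non-control probes whose accession is a mouse RefSeq transcript of a gene with a symbol of *Mrpl* or *Mrps* followed by a number. The rule found 78 genes, 49 *Mrpl* and 29 *Mrps*, of the 22911 genes that have a probe named in this way. Together they had 101 probes, and 21 of the genes had several.

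The muscle RNA came from 3 Grsf1cKO and 3 WT males at 17 months of age and was read on 1-color (Cy3) arrays from Agilent, where WT 1 and Grsf1cKO 1 were each hybridized again on another array. Grsf1cKO mice carry the *Grsf1* allele of Grsf1tm1a mice from the EMMA archive, which has LoxP sites around exons IV and V. Its LacZ and Neo cassettes were taken out through FLPo mice, and a later cross brought in Myf5Cre. Myf5Cre acts in cells of the muscle lineage, so other cells of the muscle can keep the gene, and WT mice were wild-type controls. The sample labels name the muscle as vastus intermedius, while the paper names the rectus femoris, another muscle of the quadriceps.

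Mitochondrial ribosomes translate the few proteins that mitochondrial DNA encodes, all of them subunits of the respiratory chain and ATP synthase, on which a working muscle fiber depends. Their ribosomal RNA is made inside the organelle, whereas every ribosomal protein is translated in the cytosol and imported. GRSF1 is an RNA-binding protein of the mitochondrial RNA granules, where transcripts are processed and early steps of ribosome assembly take place.

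*Grsf1*, the deleted gene, was read first as a check of the labels. Its log2 signal was 12.15, 12.02 and 12.08 (Grsf1cKO 1 to 3) against 14.30, 14.25 and 14.27 (WT 1 to 3). Every Grsf1cKO mouse lay far below every WT mouse, and the groups did not overlap. *Grsf1* fell by 2.19 on the log2 scale (SE 0.0811, adjusted p = 0.00328 by limma with Benjamini-Hochberg adjustment), lower in 3 of 3 mice. The files do not say whether this probe lies inside the deleted exons.

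All 101 probes of the mitochondrial ribosomal protein genes were well above background, by the flag of the scanner software, in all 6 mice, so that every member was tested and none dropped out as too dim. For genes with several probes the brightest probe is given unless said otherwise. A call needed an adjusted p under 0.2, an unadjusted p under 0.01 and a difference above 1.5-fold. By limma 0 of the 78 genes were called in either direction, where 3 of 38888 probes (0.00771%) were called across the array. The count was also 0 with a z-test on the same signals, the difference of group means over the root of their summed squared standard errors with a normal p. There the fold limit alone gave the 0, since *Mrp* genes passed its other limits, with adjusted p-values of 9.37e-05 at the lowest, 0.0154 for *Mrps18b* and 0.0363 for *Mrpl17*. At an unadjusted p under 0.05, 0 *Mrp* genes were higher in Grsf1cKO muscle, where 1.29% of all probes tested were, and 1 was lower, *Mrpl47*, where 2.96% of all probes tested were. Of the 13443 tested probes at or above the lowest mean signal of a member, 81 were higher and 81 lower at that level, 1.21% in all beside 1.28% of the family. With the z-test the count at that level was 8, of 78 genes, of which 7 were lower, where 10.8% of all probes tested were at that level.

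The differences were small and closely bounded. Outside *Mrpl47* the log2 fold change, Grsf1cKO minus WT, ran from -0.15 to 0.17 over 77 genes, a fold of at most 1.12 either way. For 77 of 78 genes the 95% confidence interval of limma lay within a 1.5-fold difference either way. Over all probes tested 62.9% of intervals lay within 1.5-fold, and among the 13443 brighter probes 89.8% did. The median half-width of the interval was 0.22 for the *Mrp* genes. The number of mice limits this precision. With 3 mice against 3 an exact permutation test, 2-sided, cannot go below p = 0.1.

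**Figure D1:**
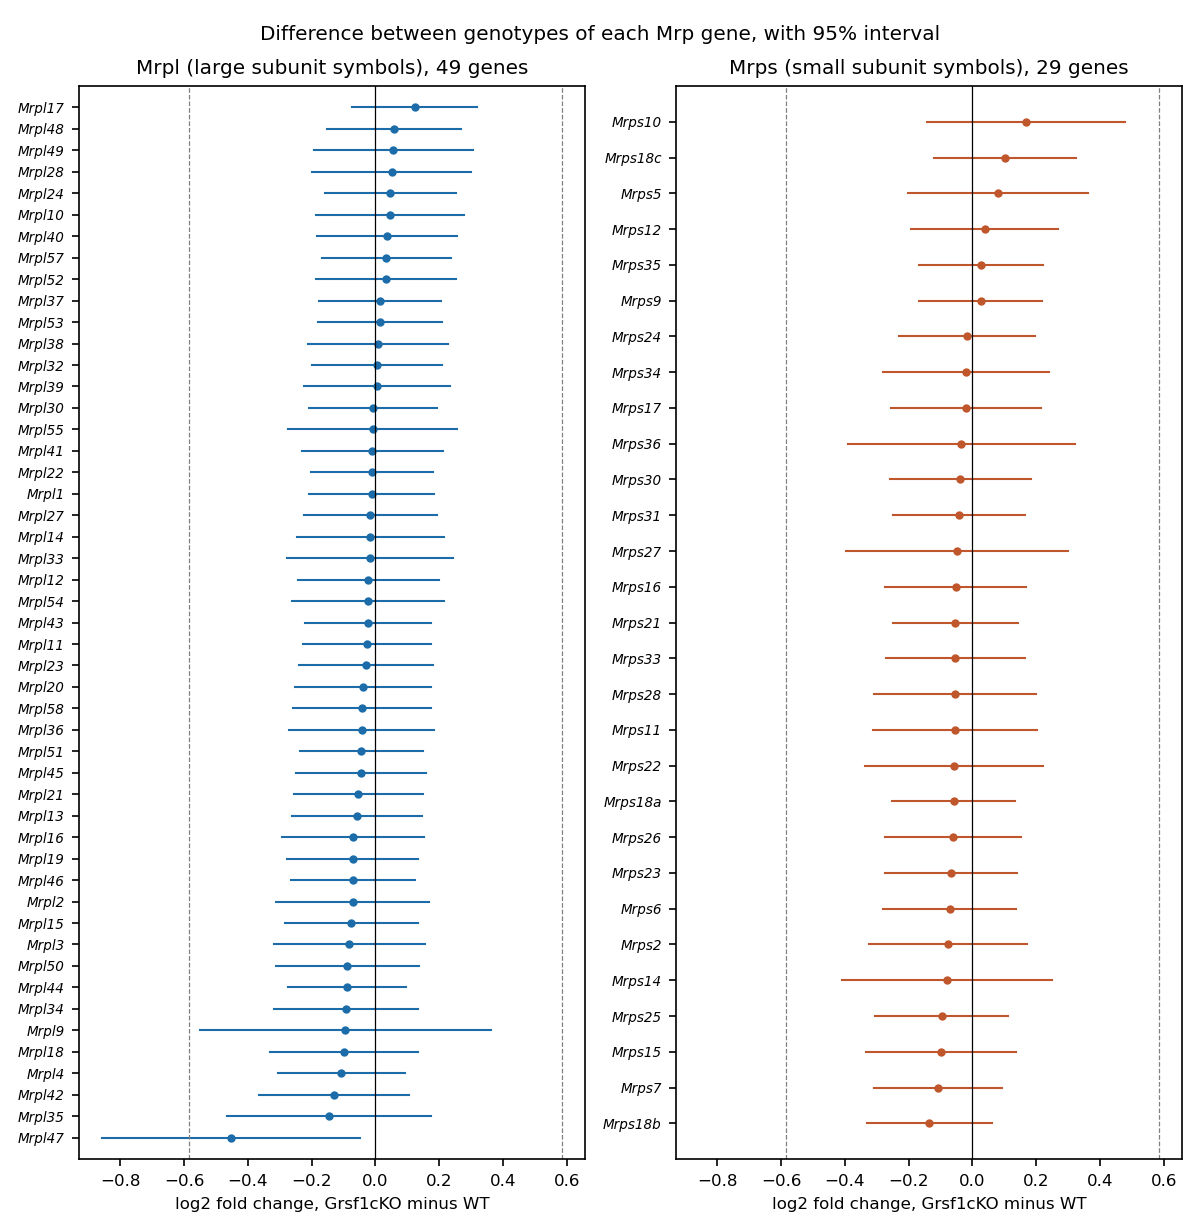
Log2 fold change of each *Mrp* gene, Grsf1cKO minus WT (points, brightest probe, 3 mice per genotype), with its 95% interval from limma (lines), for *Mrpl* genes at left and *Mrps* genes at right. Dashed lines mark a 1.5-fold difference, and only the interval of *Mrpl47* crosses one of them.

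The medians of the large and the small subunit genes lay near 0, and their place relative to the array as a whole depended on the scaling. The median log2 fold change was -0.024 over the 49 *Mrpl* genes and -0.053 over the 29 *Mrps* genes, beside -0.026 over all probes tested, and with the deposited z-scores in place of quantile normalized signals both medians turned positive, to 0.021 and 0.014, beside -0.050 over all probes. With 75th percentile normalization they were -0.035 and -0.065, beside 0.015 over all probes. Below 0 were 35 *Mrpl* and 23 *Mrps* genes, or 74.4% of the *Mrp* genes, beside 57.5% of all probes tested. With the z-scores only 29 of the 78 genes were below 0, so the side of 0 on which the family fell depended on the scaling. On slide 2 alone, which held both genotypes while slide 1 held only WT arrays, the medians were -0.041 for *Mrpl* and -0.060 for *Mrps*, and with slide as a block they were -0.029 and -0.052.

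Between genotypes without overlap were 6 *Mrp* genes lower in every Grsf1cKO mouse, where 6.27% of all probes were, and 1 *Mrp* gene higher in every Grsf1cKO mouse, where 3.08% of all probes were. As shares of the family these are 7.69% and 1.28%, near or below the shares of all probes. Of the 13443 brighter tested probes, 752 were lower and 483 higher in the same way. The 6 were *Mrpl47*, *Mrpl42*, *Mrpl4*, *Mrpl44*, *Mrps18b* and *Mrps7*, and the 1 was *Mrpl17*. On the dimmer probes of *Mrpl44*, *Mrps18b* and *Mrps7* the groups overlapped, with log2 fold changes of 0.0028, 0.064 and 0.040. In bulk muscle, fewer cells of a type and less RNA per cell cannot be told apart.

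**Figure D2:**
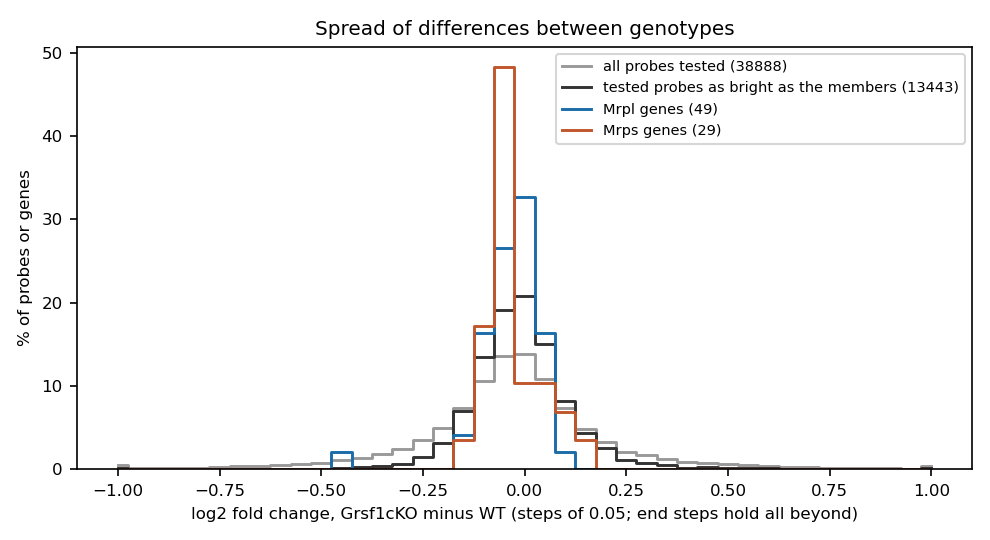
Share of probes or genes (vertical axis, %) by log2 fold change, Grsf1cKO minus WT (horizontal axis, steps of 0.05), for all probes tested, for tested probes at or above the lowest mean signal of a member, and for *Mrpl* and *Mrps* genes. *Mrpl* genes form a narrow peak in the step at 0 and *Mrps* genes in the step at -0.05, with *Mrpl47* apart at -0.45.

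*Mrpl47*, whose product is the mitochondrial counterpart of bacterial ribosomal protein L29 at the exit of the peptide tunnel, was the gene that departed from the rest. Its log2 signal was 13.63, 13.21 and 13.49 (Grsf1cKO 1 to 3) against 14.03, 13.63 and 14.03 (WT 1 to 3). WT 1 and WT 3 were high and Grsf1cKO 2 was lowest, while WT 2 lay only 0.0063 above Grsf1cKO 1, so that the groups did not overlap but nearly touched. The log2 fold change was -0.45 (SE 0.165, 95% interval -0.86 to -0.049, limma), or 1.37-fold lower in Grsf1cKO muscle, under the 1.5-fold limit for a call. Its unadjusted p was 0.0335, its adjusted p over all probes tested 0.996, and its exact permutation p 0.1, the smallest possible here. The next difference in size within the family was 0.17, in *Mrps10*. A difference larger than that of *Mrpl47* was found in 7.51% of all probes tested and in 1.12% of the brighter tested probes.

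The 1 probe of *Mrpl47* gave close readings in repeat arrays. Grsf1cKO 1 read 13.62 on its first array and 13.63 on its repeat, and WT 1 read 14.04 on slide 1 and 14.01 on slide 2. On slide 2 alone, which lacks WT 2, the low WT mouse, the log2 fold change was -0.58 (unadjusted p = 0.0129, adjusted p = 0.975 by limma), and with slide as a block it was -0.50. Leaving out WT 2 rests on the same 5 mice and gave the same value. Leaving out Grsf1cKO 2 gave -0.34, and leaving out WT 1 or WT 3 gave -0.39 each. The unadjusted p of limma rose above 0.05 without Grsf1cKO 2 (0.0995), Grsf1cKO 3 (0.0599), WT 1 (0.0984) or WT 3 (0.0987), and it was 0.0506 with the deposited z-scores. The unadjusted p was lower than in the main fit with normexp background correction (0.0135), an intensity trend (0.0126) and the z-test (0.0121). It was lowest, at 0.00668 (adjusted p = 0.751 by limma), with a block that pairs mice by number, though the labels name nothing that such mice share.

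*Mrpl47* has a head-to-head neighbor, *Ndufb5*, which encodes a subunit of complex I, and only 307 bases lie between the RefSeq starts of the 2 genes. The bases before the start of *Mrpl47*, at chr3:32736756-32737005 on the minus strand of GRCm38.p6 in RefSeq's table, are shown because they also lie before the start of *Ndufb5*, and they hold none of the motifs searched below.
Mrpl47: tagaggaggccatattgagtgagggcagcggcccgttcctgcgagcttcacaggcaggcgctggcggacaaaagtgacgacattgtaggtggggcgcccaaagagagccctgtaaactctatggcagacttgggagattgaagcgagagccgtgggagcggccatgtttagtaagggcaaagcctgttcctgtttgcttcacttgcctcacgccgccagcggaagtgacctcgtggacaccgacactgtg
The log2 signal of *Ndufb5* was 17.69, 17.53 and 17.72 (Grsf1cKO 1 to 3) against 17.77, 17.68 and 17.80 (WT 1 to 3). The groups overlapped, with Grsf1cKO 2 lowest for this gene too. The log2 fold change of *Ndufb5* was -0.10 (SE 0.0931, limma adjusted p = 0.996). On the other side of *Mrpl47*, *Actl6a*, a subunit of chromatin remodelers, had a log2 fold change of 0.064 (SE 0.0796). These neighbors were chosen after the values of *Mrpl47* were seen.

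Among other *Mrpl* genes, the largest differences were in *Mrpl35*, *Mrpl42* and *Mrpl17*. The log2 signal of *Mrpl35*, which encodes the counterpart of bacterial L35, was 11.13, 11.05 and 10.83 (Grsf1cKO 1 to 3) against 11.34, 11.02 and 11.08 (WT 1 to 3). WT 1 was high and Grsf1cKO 3 low, while the other 4 mice lay together and the groups overlapped. Its log2 fold change was -0.15 (SE 0.130, limma adjusted p = 0.996), and it was -0.049 without WT 1 and -0.061 without Grsf1cKO 3. The log2 signal of *Mrpl42*, a protein with no bacterial counterpart, was 16.57, 16.60 and 16.37 (Grsf1cKO 1 to 3) against 16.68, 16.63 and 16.62 (WT 1 to 3). The groups did not overlap, but Grsf1cKO 3 alone stood clearly apart and the other 2 Grsf1cKO mice were just below WT. Its log2 fold change was -0.13 (SE 0.0962, limma adjusted p = 0.996), and it was -0.057 without Grsf1cKO 3 and -0.0071 with the deposited z-scores.

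*Mrpl17*, whose product sits at the tunnel exit like that of *Mrpl47*, differed the other way. Its log2 signal was 13.48, 13.39 and 13.50 (Grsf1cKO 1 to 3) against 13.32, 13.35 and 13.33 (WT 1 to 3). All 3 Grsf1cKO mice were above the tightly grouped WT mice. The log2 fold change was 0.12 (SE 0.0801, 95% interval -0.073 to 0.32, limma adjusted p = 0.996), higher in 3 of 3 mice without passing the test.

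Among *Mrps* genes the largest differences were in *Mrps10*, *Mrps18b*, *Mrps7* and *Mrps18c*. *Mrps10*, which encodes a protein of the small subunit head, had a log2 signal of 14.37, 14.22 and 14.06 (Grsf1cKO 1 to 3) against 14.04, 13.90 and 14.20 (WT 1 to 3). Grsf1cKO 1 was high and WT 2 low, and the groups overlapped. Its log2 fold change was 0.17 (SE 0.127, limma adjusted p = 0.996), and it was 0.092 without Grsf1cKO 1, 0.095 without WT 2 and 0.091 on slide 2 alone, but 0.25 without Grsf1cKO 3 or without WT 3. *Mrps7*, another protein of the head, read 14.78, 14.72 and 14.69 (Grsf1cKO 1 to 3) against 14.91, 14.81 and 14.80 (WT 1 to 3) on the log2 scale. All Grsf1cKO mice were below all WT mice on this probe, with a log2 fold change of -0.11 (SE 0.0820, limma adjusted p = 0.996). The dimmer probe of *Mrps7* gave the other sign, 0.040, the mean of its probes gave -0.034, and the deposited z-scores gave -0.036.

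The S18 family has a trio of genes, of which *Mrps18c* encodes the counterpart of bacterial S18, *Mrps18b* a protein found elsewhere in the small subunit, and *Mrps18a* a protein of the large subunit despite its symbol. The log2 signal of *Mrps18b* was 14.88, 14.80 and 14.75 (Grsf1cKO 1 to 3) against 14.94, 14.96 and 14.93 (WT 1 to 3). The groups did not overlap and the WT mice were tightly grouped, with a log2 fold change of -0.14 (SE 0.0802, limma adjusted p = 0.996), but the dimmer probe of the gene gave 0.064, the mean of its probes -0.036 and the deposited z-scores -0.071. The log2 signal of *Mrps18c* was 14.12, 13.92 and 13.99 (Grsf1cKO 1 to 3) against 13.96, 13.88 and 13.88 (WT 1 to 3). Grsf1cKO 1 was high and the groups overlapped, with a log2 fold change of 0.10 on this probe (SE 0.0907, limma adjusted p = 0.996) and of 0.073 on the dimmer one. It was 0.047 without Grsf1cKO 1 and 0.046 with normexp background correction. *Mrps18a* had a log2 fold change of -0.059 (SE 0.0782), which was -0.038 without Grsf1cKO 2 and 0 with the deposited z-scores, and its groups overlapped.

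**Figure D3:**
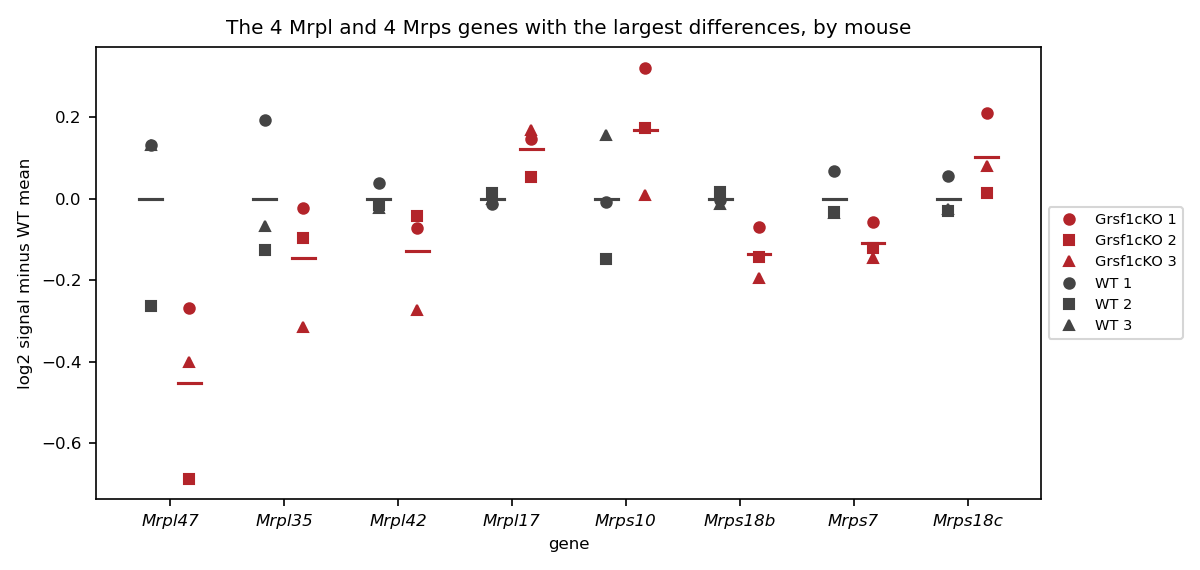
Log2 signal of each mouse minus the mean of the WT mice (vertical axis) for the 4 *Mrpl* and the 4 *Mrps* genes with the largest absolute log2 fold change. Symbols mark the replicate number, horizontal bars the mean of 3 mice, and all Grsf1cKO mice lie below all WT mice for *Mrpl47*, *Mrpl42*, *Mrps18b* and *Mrps7* and above them for *Mrpl17*.

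Other members with a known role showed narrow differences. In the stalk that recruits translation factors, *Mrpl10* had a log2 fold change of 0.047 (SE 0.0949) and *Mrpl12*, which it anchors, one of -0.022 (SE 0.0899). The dimmer probe of *Mrpl10* gave 0.15, and the mean of its probes 0.099. *Mrps30*, a large subunit protein despite its symbol, had a log2 fold change of -0.038 (SE 0.0902). *Mrps36*, placed by later work in the 2-oxoglutarate dehydrogenase complex and not in the ribosome, had one of -0.035 (SE 0.145). In each of these 4 genes the groups overlapped. The sign of each turned when 1 mouse was left out, as far as -0.0086 for *Mrpl10*, 0.023 for *Mrpl12*, 0.014 for *Mrps30* and 0.092 for *Mrps36*.

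Places in the ribosome were assigned after the values were seen, and no test compared them. The 3 genes of the stalk and its base ran from -0.027 in *Mrpl11* to 0.047 in *Mrpl10*. The 6 proteins around the tunnel exit held both the lowest value of the family, *Mrpl47*, and the highest of the large subunit, *Mrpl17*, and had a median log2 fold change of -0.020. The 8 genes of the central protuberance ran from -0.097 in *Mrpl18* to 0.058 in *Mrpl48*. The 8 genes of the small subunit head ran from -0.11 in *Mrps7* to 0.17 in *Mrps10*. By origin of the protein, the 43 genes with a bacterial counterpart had a median of -0.039 and the 35 genes particular to mitochondria one of -0.041, where the deposited z-scores gave 0.021 and 0.014. Without WT 1 these medians were -0.015 and -0.011, and without Grsf1cKO 1 that of the first class was -0.063. These classes did not go by the number in the symbol alone, as *Mrps24* was counted with the first and *Mrps18a* and *Mrps18b* with the second. *Mrpl47* was also counted with the second. Moving *Mrpl47*, *Mrpl55* and *Mrps28* to the first, as chosen after seeing the data, gave medians of -0.041 and -0.039.

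Mice of a genotype differed in the family as a whole. WT 1 was the highest of the 6 mice for 33 of 78 *Mrp* genes (42.3%, beside 20.6% of all probes tested), and its median deviation from the WT mean was 0.045. Grsf1cKO 3 was the lowest for 20 genes (25.6%, beside 19.3% of all probes tested) and Grsf1cKO 2 for 17 (21.8%, beside 12.5%). The median deviations of these 2 mice were -0.062 and -0.054. Grsf1cKO 1, at -0.0028, and WT 3, at -0.0060, were near the WT mean, and WT 2 lay at -0.031, so that the genotypes overlapped. Without WT 1 the median log2 fold change was -0.013 for *Mrpl* and -0.011 for *Mrps*. The median deviation of *Mrpl* minus that of *Mrps* was 0.055 in Grsf1cKO 3 and between -0.024 and 0.022 in the other 5 mice.

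**Figure D4:**
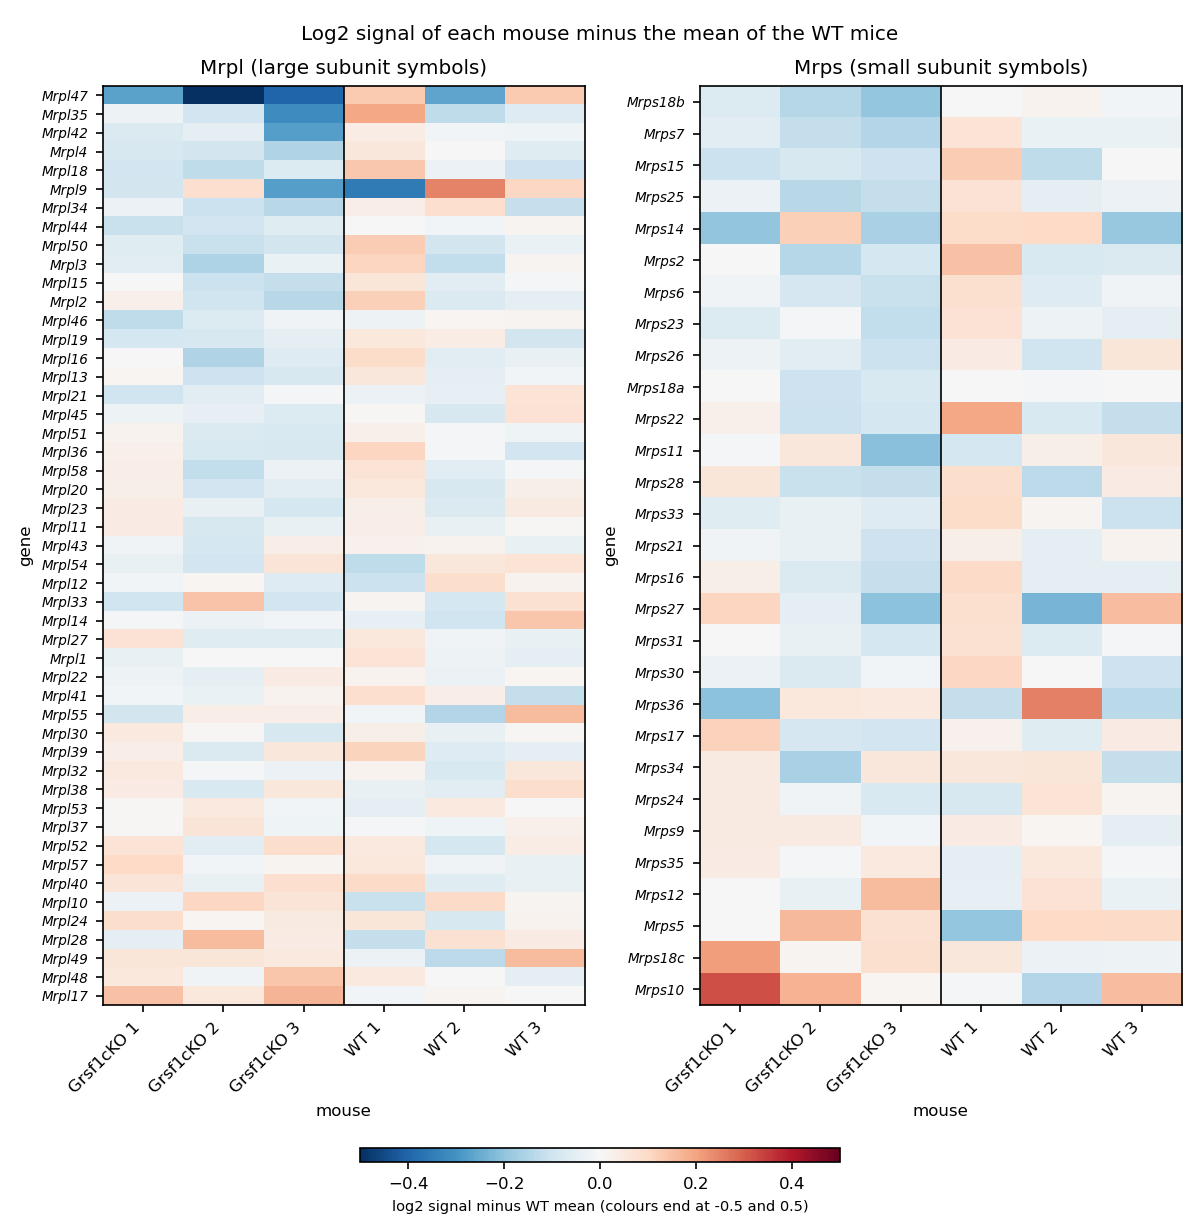
Log2 signal of each mouse (columns) minus the mean of the 3 WT mice, for each *Mrp* gene (rows, ordered by log2 fold change), with blue for lower and red for higher. WT 1 is the highest mouse for 33 of 78 genes, and *Mrpl47*, *Mrpl9*, *Mrpl35* and *Mrps10* vary more from mouse to mouse than most.

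Repeat arrays gave close readings for the *Mrp* genes, though not over the array. Over the 78 genes the SD of repeat minus first array was 0.047 in WT 1 and 0.043 in Grsf1cKO 1, and 0 genes differed by more than 1.5-fold in either mouse. Over all probes tested that SD was 0.279 in WT 1 and 0.730 in Grsf1cKO 1, whose repeat array had 88.9% of its spots well above background, beside 66.3% to 73.1% on the other arrays. The median SD over the 3 mice of a genotype was 0.075 in WT and 0.062 in Grsf1cKO muscle, beside 0.11 and 0.090 over the brighter tested probes and 0.16 in both genotypes over all probes tested.

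Some members varied between mice with no regard to genotype, and they were picked after their values were seen. *Mrpl9*, the counterpart of bacterial L9, had a log2 signal of 13.21, 13.38 and 13.02 (Grsf1cKO 1 to 3) against 12.94, 13.55 and 13.40 (WT 1 to 3). The lowest and the highest of the 6 mice were both WT, and its range of 0.60 was second only to that of *Mrpl47*, at 0.82. The dimmer probe of *Mrpl9* also put WT 1 lowest, at 9.99, and WT 2 highest, at 10.55. The log2 fold change of the gene was -0.094 on the brighter probe (SE 0.186) and 0.081 on the dimmer one. *Mrps36* ranged over 0.46, with WT 2 highest and Grsf1cKO 1 lowest.

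Several probes of a gene often differed by as much as the genotypes did. Over the 21 genes with several probes the log2 fold changes of a gene's probes lay at most 0.20 apart, in *Mrps18b*, which is more than the difference of any member but *Mrpl47*. Their signs were the same in 13 of the 21 genes. The probes shared the highest mouse in 9 genes and the lowest mouse in 6.

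Other proteins and helpers of mitochondrial translation were read beside them. Of the 5 ribosomal proteins not named *Mrp*, the largest difference was in *Chchd1*, a small subunit protein, at -0.15 on the log2 scale (SE 0.0767, limma adjusted p = 0.996). *Dap3*, a GTP-binding protein of the small subunit, had a log2 fold change of -0.091 (SE 0.0935), which was -0.025 without Grsf1cKO 3 and -0.021 with the deposited z-scores. The median of the 5 was -0.12, with all 5 below 0, and -0.036 with the deposited z-scores. The largest difference among assembly genes was in *Mrm1*, which encodes a methyltransferase of the ribosomal RNA, at -0.28 (SE 0.119, limma adjusted p = 0.996). Of 26 assembly and ribosomal RNA modification genes, 15 tested translation factor genes of 16 listed and 17 mitochondrial tRNA synthetase genes, 0 were called by limma, 0 had an unadjusted p under 0.05, and the medians were -0.039, -0.045 and -0.041. The median of the assembly genes was -0.082 with the deposited z-scores. With a mouse left out, the medians of the translation factors ran from -0.078 to -0.023 and those of the tRNA synthetases from -0.071 to -0.024.

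Nuclear complex I subunits and cytosolic ribosomal proteins were set beside them. Of 36 complex I genes tested (37 listed), 8 were lower in every Grsf1cKO mouse and 0 higher, where 6.27% and 3.08% of all probes were. Their median was -0.064, and with the deposited z-scores it turned to 0.057. With 75th percentile normalization it was -0.099, and without Grsf1cKO 3 it was -0.034. Over 81 of 86 cytosolic ribosomal protein genes, which encode the ribosome of the cytosol, the median was 0.020, and it was -0.0016 with 75th percentile normalization and 0.13 with the deposited z-scores. Without Grsf1cKO 3 it was 0.0040. Of these 81 genes, 5 were lower and 6 higher in every Grsf1cKO mouse. In both lists 0 genes were called by limma and 0 had an unadjusted p under 0.05.

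**Figure D5:**
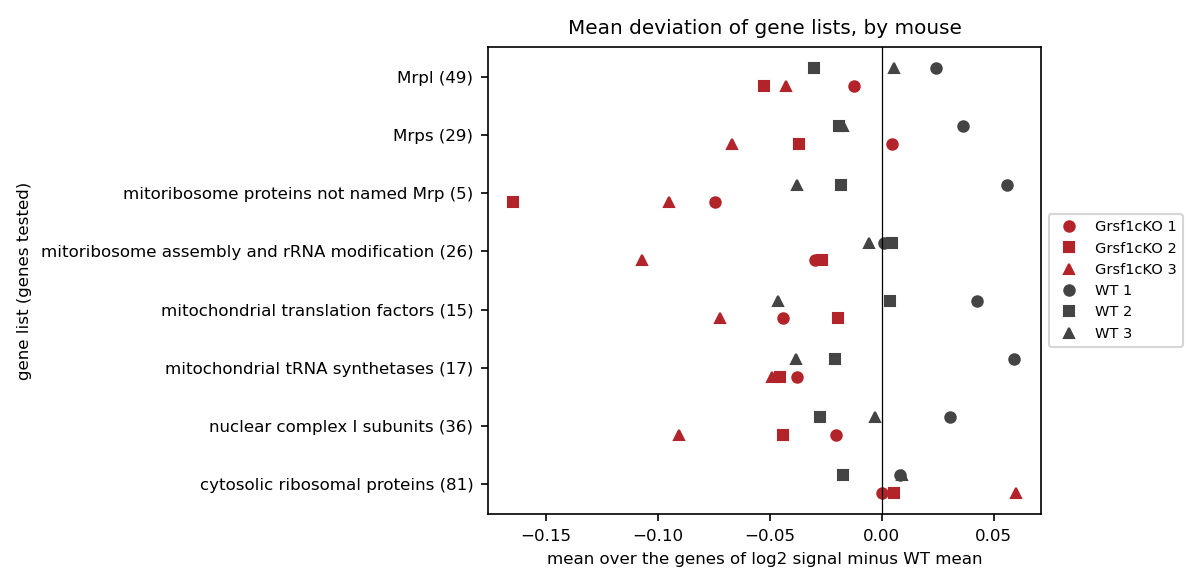
Mean over the genes of a list of log2 signal minus the WT mean (horizontal axis), 1 point per mouse, for *Mrpl*, *Mrps* and 6 related lists, with the number of genes tested in parentheses. The points of *Mrpl* and *Mrps* lie between -0.067 and 0.036, with the genotypes overlapping in both.

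Markers of cell types were read as a check of the tissue. All 10 markers of the skeletal muscle fiber, such as *Ckm* and *Acta1*, were well above background in all 6 mice, with 0 called and a median log2 fold change of 0.014. Their log2 fold changes ran from -0.59 to 0.51, with 7 above 0 and 3 below. The mean deviation of these markers from WT was -0.19 in WT 1 and -0.12 in Grsf1cKO 2. In the other mice it was between 0.084 and 0.11. *Myh7*, the slow myosin, was uneven, with a log2 signal of 11.35, 9.46 and 9.39 (Grsf1cKO 1 to 3) against 9.27, 11.38 and 11.33 (WT 1 to 3). WT 1 was thus among the low mice for this marker. The 5 macrophage and leukocyte markers had a mean deviation from WT of 0.91 in Grsf1cKO 3, the mouse lowest for more *Mrp* genes than any other, against -0.068 and -0.062 in Grsf1cKO 1 and 2, and *Csf1r*, a receptor of macrophages, read 14.19 there and between 13.42 and 13.72 in the other mice. The 4 fibroblast markers stood at 0.42 in the same mouse, and next at 0.22 in WT 1, the mouse highest for more *Mrp* genes than any other. The 5 adipocyte markers ran from -0.69 in WT 3 to 0.35 in WT 1, the 3 tested erythroid markers from -0.43 in WT 3 to 0.53 in WT 2, and the 3 smooth muscle markers from -0.26 in Grsf1cKO 3 to 0.21 in Grsf1cKO 1. The 4 endothelial markers, the 4 Schwann cell markers and the 2 tested satellite cell markers had medians of -0.075, 0.032 and 0.10, with 0 called in any list. The satellite cell markers stood at -0.32 in WT 1 and between 0.021 and 0.22 in the other mice. *Myf5*, whose promoter drives the Cre, was not well above background in any mouse. The part of these cells in the values of the *Mrp* genes was not tested.

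Some members have features of position and of promoter sequence that the rule did not use. RefSeq's promoter table of GRCm38.p6 held 69 of the 78 genes, in windows of 250 bases before and 50 after the start. Of these, 26 (37.7%) had the start of another gene on the opposite strand within 1000 bases, beside 12.2% of the 27025 genes of the table, as *Mrpl47* has *Ndufb5*. *Mrpl46* and *Mrps11* face each other in this way, and their log2 fold changes were -0.071 and -0.055.

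Motifs were searched as letters on both strands of these windows, and a match is a description of the letters. The NRF1 motif GCGCANGCGC, where N is any base, was in 13 *Mrp* promoters (18.8%) and in 5.19% of all genes. The ETS/GABP core CCGGAAGT was in 12 (17.4%) and in 4.31% of all genes. The YY1 core AAGATGGC was in 12 (17.4%) and in 3.19% of all genes. At least 1 of the 3 motifs was in 34 of the 69 *Mrp* genes (49.3%) and in 11.7% of all genes. The bases before the start are shown for *Mrpl17*, at chr7:105811088-105811337 on the minus strand, and for *Mrps18c*, at chr5:100798509-100798758 on the plus strand, 2 genes with a positive log2 fold change, with the match in capitals.
Mrpl17: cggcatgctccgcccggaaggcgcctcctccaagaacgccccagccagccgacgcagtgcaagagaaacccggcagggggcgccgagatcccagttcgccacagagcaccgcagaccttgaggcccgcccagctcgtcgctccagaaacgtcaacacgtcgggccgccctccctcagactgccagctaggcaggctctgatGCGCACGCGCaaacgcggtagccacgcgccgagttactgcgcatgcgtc
Mrps18c: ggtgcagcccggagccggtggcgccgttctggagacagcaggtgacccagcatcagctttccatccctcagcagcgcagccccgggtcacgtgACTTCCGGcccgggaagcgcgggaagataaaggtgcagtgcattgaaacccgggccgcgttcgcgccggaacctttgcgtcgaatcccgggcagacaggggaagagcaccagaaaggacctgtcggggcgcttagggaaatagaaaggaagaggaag
In *Mrpl17* the capitals mark an NRF1 match that ends 39 bases before the start, and in *Mrps18c* an ETS/GABP match that ends 149 bases before it. Of the 4 *Mrpl* and the 4 *Mrps* genes with the largest differences in their subunit, these were the only ones with a match in the bases before the start. In the whole window, with its 50 bases after the start, *Mrpl35*, *Mrpl42* and *Mrps7* had a YY1 match. Members with an NRF1 match in the window ran in log2 fold change from -0.094 in *Mrpl9* to 0.12 in *Mrpl17*. Those with an ETS/GABP match ran from -0.097 in *Mrpl18* to 0.10 in *Mrps18c*. Whether a match goes with the log2 fold change was not tested.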

How the data were processed

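The 8 array files hold intensity values and, per the file headers, come from Feature Extraction 12.0.3.1, which the authors used with background subtraction inside each array. Processed signals of the 59305 non-control spots were put on the log2 scale, with spots flagged as uneven or as outliers left out. They were then quantile normalized over the 8 arrays and averaged over spots of a probe, which left 56605 probes. The deposited series table holds score values, z-scores of each array that the authors made, and these served as an alternative. Per the file headers the flags for signal well above background, uneven spots and saturation are of unit other (0 or 1), and 0 spots were saturated. The replicates of the labels are separate mice, and the repeat arrays of WT 1 and Grsf1cKO 1 were averaged with their first arrays into 1 value per mouse.

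A probe was tested when it was well above background in at least 3 of 6 mice, with values in at least 2 mice per genotype, which held for 38888 probes. Genotype was tested with limma 3.58.1 in R 4.3.3 (moderated t, 2-sided), with Benjamini-Hochberg adjustment over all probes tested. Genes took their names from the RefSeq table of GRCm38.p6, matched on the accession of the probe, for 32994 of the 56605 probes. Of a gene with several probes the one with the highest mean signal was used. Single genes were named where they were among the 4 Mrpl or the 4 Mrps genes with the largest absolute log2 fold change, or for their role. Others were named for variation between mice, for groups without overlap, as ends of a range, for facing starts or for a change of class. In the translation factor list *Mtrfr* was not matched to a probe. The members and lists were chosen with earlier results of these data known. Promoters and figures were handled with Python 3.11.15 and matplotlib 3.10.9.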

Additional observations from a re-analysis of the deposited data

How the results depend on the processing

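With 3 mice per genotype, results were computed again under up to 19 other settings. These were the deposited z-scores, 75th percentile normalization, normexp background correction (offset 50), and no detection filter or one in all 6 mice. Further settings were first arrays alone, and the repeat arrays of WT 1 and Grsf1cKO 1 in place of their first. Slide 2 alone, slide as a block, the replicate block and each mouse left out were also run. The last were an intensity trend, a z-test on the same signals, and the mean over the probes of a gene. The trend and the z-test were not run for list medians or for genes named for their role. Places and cell type markers, among others, had the main setting only. *Grsf1*, not run with the mean over probes, kept its sign. So did the 4 Mrpl and the 4 Mrps genes with the largest differences in their subunit, but not their size, as *Mrpl42* shrank from -0.13 to -0.0071 with the z-scores and *Mrpl35* from -0.15 to -0.049 without WT 1, and 0 Mrp genes were called in any. *Grsf1* stayed between -2.22 and -2.16 with a mouse left out, and under the replicate block, which pairs mice by number, it was -2.19 with an adjusted p of 0.25 and was not called. The block called 1 probe in all against 3, and gave *Mrpl47* an unadjusted p of 0.00668 (adjusted 0.751). Residuals of same-numbered mice had r of 0.232, 0.0970 and 0.104 over 38859 probes (-0.185 to 0.0936 for other numbers) and 0.449, 0.423 and -0.165 over the 78 Mrp genes. Over all probes each mouse correlated best with its own number, a hint from the data and not the design. As the labels name nothing that mice of a number share, the numbers were not taken as pairs, and the block is given as an alternative. With the deposited z-scores the medians moved to 0.021 for Mrpl and 0.014 for Mrps. With a mouse left out they ran from -0.046 to -0.013 and from -0.071 to -0.011. Genes with an unadjusted p under 0.05 numbered 0 with the z-scores (3.99% of all probes), 2 with the trend (3.55%), 8 with the z-test (10.8%) and 0 to 1 with a mouse left out. The z-test called 379 probes in all, where limma called 3. Counting *Mrpl47*, *Mrpl55* and *Mrps28* with a bacterial counterpart was chosen after seeing the data. The cause of these shifts was not tested.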
